A study of Mus musculus with 8 samples.

Results

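H3K79me2 is a histone mark made by the methyltransferase DOT1L. In mouse spermatogonial stem cell cultures treated with the DOT1L inhibitor EPZ5676, residual wide peaks are its broadest peaks that overlap a control peak. Residual here names that overlap only. These peaks are the ones of the EPZ5676 list on chromosomes 1 to 19 that measured at least 1000 bp and overlapped a control peak by 1 bp or more. Of 9182 EPZ5676 peaks, 713 met this rule (7.77%). They covered 1.13 Mb, or 24.4% of the length of the EPZ5676 list. They were chosen by measured values, the peak width and the overlap with the control list, so both are given below as a description, with no test.

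The series compared cultures treated with EPZ5676 at 2 µM for 7 days with vehicle cultures, by chromatin immunoprecipitation and sequencing. Both kinds of culture came from germ cells of ROSA mice aged 7 days (strain B6.129S7-Gt(ROSA)26Sor/J), which carry LacZ in every tissue, and had grown for 2 months with GDNF and FGF2 over SNL 76/7 feeder cells. The vehicle is DMSO in the protocols and ethanol, written EtOH, in the control samples' short descriptions. For either condition the 2 antibody samples and 2 inputs come with a single list of peaks. Replicate spread is therefore unknown for every value below, the conditions could not be compared by a test, and fewer marked cells cannot be told apart from less mark per cell. The protocols name no removal of the feeder cells, a mouse fibroblast line, and a peak in feeder chromatin cannot be told apart from one in germ cells. In the control list a peak lay on 20 of 26 genes of undifferentiated spermatogonia and 12 of 14 germ cell identity genes. It lay on 18 of 28 fibroblast genes, 6 of 20 genes of testis somatic cells and 2 of 19 genes of unrelated tissues. Over all autosomal protein-coding genes it lay on 11203 of 20665 (54.2%). Read depth is unknown here.

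H3K79me2 marks transcribed genes. It is laid down as RNA polymerase II moves from initiation to elongation, and lies mostly over the first part of the gene body, downstream of the nucleosome-poor start. No enzyme other than DOT1L is known to make most of it, and the mark is diluted by cell division and histone exchange once the enzyme is blocked.

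The residual wide peaks lay mostly inside genes and hardly ever on a gene's start. The sequences of some start windows are given below. A start window here runs from 250 bases before to 50 bases after an annotated start (RefSeq, GRCm38.p6, the assembly of mm10), 5′ to 3′ on the strand of the gene. Only 4 windows lay under a residual wide peak, and 2 of them belong to predicted genes, Gm52295 and Gm52782. The other 2 are internal starts of Capzb, an actin-capping protein gene, at chr4:139193861-139194160, plus strand, and of Rxra, the gene of retinoid X receptor alpha, at chr2:27709042-27709341, plus strand. They are set beside the first listed starts of Nrp1 (chr8:128358823-128359122, plus strand) and Lhfp (chr3:53041297-53041596, plus strand), which each held 7 residual wide peaks, all of them downstream of the window. Capitals mark every CG, the dinucleotide that is dense at most promoters of broadly active genes.
Capzb: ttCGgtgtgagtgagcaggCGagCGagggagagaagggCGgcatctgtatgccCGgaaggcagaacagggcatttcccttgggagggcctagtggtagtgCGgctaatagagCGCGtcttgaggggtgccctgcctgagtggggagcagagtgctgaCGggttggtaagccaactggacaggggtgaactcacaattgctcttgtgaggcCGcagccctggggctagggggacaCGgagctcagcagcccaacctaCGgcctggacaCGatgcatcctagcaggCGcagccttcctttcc
Rxra: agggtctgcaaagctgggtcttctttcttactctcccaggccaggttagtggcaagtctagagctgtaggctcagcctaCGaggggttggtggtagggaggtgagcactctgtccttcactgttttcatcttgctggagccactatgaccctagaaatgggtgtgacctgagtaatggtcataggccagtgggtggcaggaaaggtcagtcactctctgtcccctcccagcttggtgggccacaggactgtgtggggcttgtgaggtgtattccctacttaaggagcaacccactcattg
Nrp1: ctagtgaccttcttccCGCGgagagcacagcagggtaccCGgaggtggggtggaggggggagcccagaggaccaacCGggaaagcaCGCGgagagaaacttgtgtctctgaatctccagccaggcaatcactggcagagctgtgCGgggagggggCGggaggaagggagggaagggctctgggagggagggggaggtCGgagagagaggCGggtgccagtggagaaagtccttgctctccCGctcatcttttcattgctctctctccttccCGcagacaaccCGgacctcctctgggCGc
Lhfp: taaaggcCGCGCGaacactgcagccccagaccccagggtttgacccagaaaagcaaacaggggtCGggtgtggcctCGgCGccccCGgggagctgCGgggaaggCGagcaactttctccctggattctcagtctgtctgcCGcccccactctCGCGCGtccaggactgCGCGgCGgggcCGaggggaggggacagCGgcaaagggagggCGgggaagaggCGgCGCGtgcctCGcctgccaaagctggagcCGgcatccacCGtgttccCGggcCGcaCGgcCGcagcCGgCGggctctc

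The window of Capzb holds 14 CG and lies 1212 bp into the gene span, whereas the window of Rxra holds 1 CG and lies 32847 bp in. Nrp1 has 14 CG in its window and its nearest residual wide peak began 7430 bp downstream of the start. Lhfp has 31 CG and its nearest one began 4251 bp downstream. Pakap also held 7 residual wide peaks. Its first listed start, not printed above, has 26 CG, and its nearest one began 135621 bp downstream. Among all 32851 windows the median was 7 CG (quartiles 3 and 20), and 94.6% held at least 1 CG. At least 14 CG were present in 36.3% of windows and at least 31 in 10.6%.

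One residual wide peak, 1151 bp in B4galt1, a galactosyltransferase gene, spans a microRNA gene, Mir5123. Its mature product, at chr4:40850057-40850080 on the minus strand, is shown because no other listed mature microRNA lay under these peaks. Capitals mark the seed, bases 2 to 8.
mmu-miR-5123: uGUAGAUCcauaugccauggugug

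The 713 peaks had a median width of 1362 bp (quartiles 1136 and 1788 bp) and reached 8867 bp. Fold enrichment, the ratio of signal to background that the authors deposited with each peak, ran from 2.23 to 3.58 with a median of 2.84. The deposited −log10 q had a median of 1.61 and a maximum of 4.34. Within the EPZ5676 list the median peak of this group stood at percentile 72.2 by fold and 72.8 by −log10 q. The highest fold (5.22) and −log10 q (19.1) of that list belonged to the same peak, of 572 bp. With a −log10 q of at least 2, 82 residual wide peaks were left.

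Of all EPZ5676 peaks of 1000 bp or wider, 91.8% overlapped a control peak, and 64 of 777 did not. For EPZ5676 peaks of any width this share was 55.8%. Seen from the control, 655 of 46767 autosomal peaks, or 1.4%, carried a residual wide peak. Most residual wide peaks lay wholly within control peaks, namely 570 of 713, or 79.9% (exact Clopper-Pearson 95% interval 76.8 to 82.8%). Control peaks covered less than 50% of the length in 49 of them. A single control peak lay under 682 of them, 2 control peaks lay under 30, and 3 control peaks lay under 1.

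Just inside the width limit were 1000 bp in Elk3 (fold 2.76), an ETS factor gene, 1000 bp in Efna5 (fold 2.95), an ephrin gene, and 1001 bp in Osgin2 (fold 2.77). Just outside it were 999 bp in Irs1 (fold 2.57), the insulin receptor substrate gene, 999 bp in Mprip (fold 2.86) and 998 bp in Hipk2 (fold 2.70), a kinase gene. Their widths differ by 3 bp at most, while their control peaks ran from 322 bp in Efna5, which covered 20% of the residual peak, to 67690 bp in Mprip, which covered all of it.

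The widest residual peak, 8867 bp, was in Parva, a focal adhesion gene, at chr7:112435093-112443959, inside a control peak of 17647 bp. Next came 6330 bp in Nrp1, the semaphorin and VEGF co-receptor gene, at chr8:128386846-128393175. Maml2, a Notch coactivator gene, held 5935 bp at chr9:13317133-13323067 and 4024 bp at chr9:13305935-13309958. The peak of 4794 bp in Arid1b, a chromatin remodeller subunit gene, lay at chr17:5001103-5005896 within a control peak of 37712 bp. That of 4650 bp in Nfix, a nuclear factor I gene, lay at chr8:84793707-84798356 within one of 42739 bp. Itprip (4434 bp), Frmd4a (4356 bp), a FERM domain scaffold gene, and Siah1a (4323 bp), a ubiquitin ligase gene, followed. The remaining one of the 10 widest, 4518 bp at chr15:62113156-62117673, lay in no protein-coding gene but in Pvt1, a long noncoding RNA gene next to Myc.

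**Figure D1:**
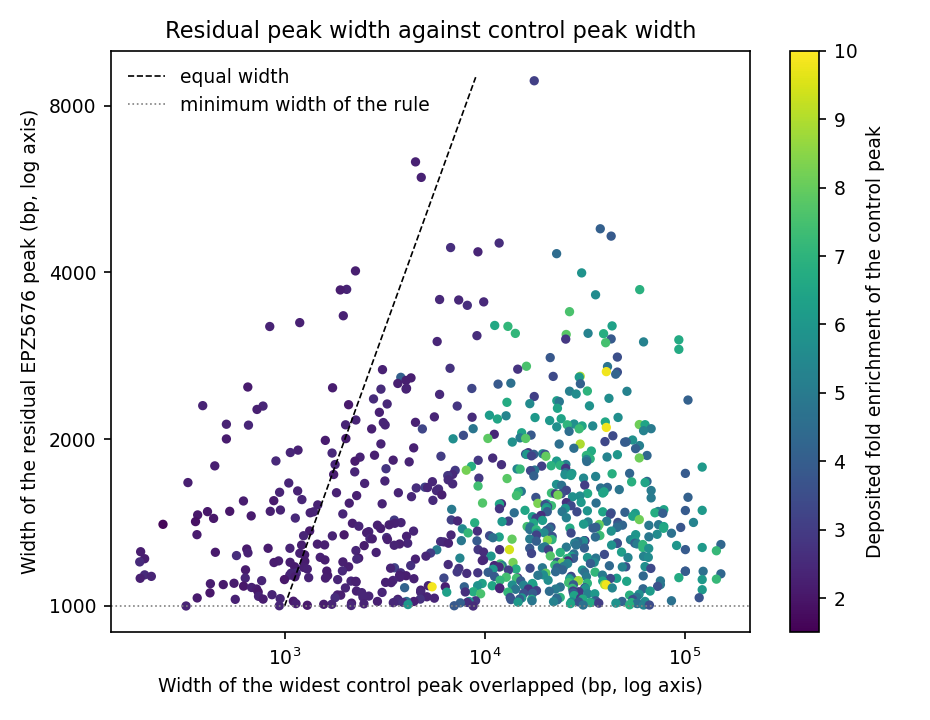
Width of each of the 713 residual EPZ5676 peaks (vertical, bp, log axis) against the width of the widest control peak it overlapped (horizontal, bp, log axis), coloured by the deposited fold enrichment of the control peak; the dashed line marks equal width and the dotted line 1000 bp. The 90 points left of the dashed line are wider than their control peak, and the points of high control fold sit to the right, over control peaks of 10000 bp and more.

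The highest fold enrichment belonged to a peak of 2586 bp in Stard13 at chr5:151121295-151123880 (fold 3.58, −log10 q 4.34). Second was a peak of 1633 bp in Fgfr2, a receptor of the FGF family, at chr7:130253684-130255316 (fold 3.36, −log10 q 3.01). Basp1, a membrane-associated protein gene, had a fold of 3.31 over 1298 bp, and U2surp, a splicing factor gene, 3.23 over 1766 bp. Spred2, a gene of an inhibitor of Ras and MAP kinase signalling, had 3.23 over 1470 bp. Among the remaining ones B4galt1 had 3.21, the predicted gene Gm39469 3.21, Stat5b, a cytokine signalling gene, 3.20 and Nfix 3.19. Nfix alone was among the 10 both by width and by fold.

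The control peaks under these residual peaks were of contrasting kinds, faint narrow ones and strong broad domains. Their median deposited fold enrichment was 3.89 and their median width 15205 bp (quartiles 3676 and 31538 bp). Of the 713 residual wide peaks, 340 (47.7%) lay on a control peak of fold 4 or more, where 7.92% of all autosomal control peaks reach that fold. Another 155 (21.7%) lay on a fold from 2.5 to 4, against 22.2% of control peaks, and 218 (30.6%) on a fold under 2.5, against 69.8%. These limits were set after the values were seen. The first share of each pair counts residual peaks and the second counts control peaks of any length, so the pairs are not like for like. Strong control peaks were also broader and offer more room for an overlap. Of the narrower residual peaks, 51.7% lay on a control peak of fold 4 or more, so this is not particular to the wide ones. Over strong control peaks the median control width was 28334 bp and no residual peak was wider than its control peak. Over faint ones the median control width was 2019.5 bp, and 86 of 218 residual peaks were wider than the control peak. The residual peaks themselves were alike in both settings, with a median width of 1387.5 bp and fold of 2.84 over strong control peaks and 1337 bp and 2.84 over faint ones. By −log10 p the control list reaches weaker peaks than the EPZ5676 list, with a lowest value of 2.36 against 4.03. By −log10 q both lists stop at nearly the same value, 1.05 for control peaks and 1.04 for EPZ5676 peaks. Widths are therefore not measured to the same limit of p, while the limits of q are close. The control list was then held to the EPZ5676 floor of −log10 p, 4.03. At that floor 526 of the 713 residual wide peaks still overlapped a control peak, at a median control fold of 4.86. The faint kind thus rests in part on control peaks below the lowest −log10 p of the EPZ5676 list.

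Residual wide peaks were more frequent on broad control peaks. They lay on 79 of 22091 control peaks of up to 1 kb (0.358%), on 102 of 2377 from 10 to 20 kb (4.29%), on 178 of 1348 from 20 to 50 kb (13.2%) and on 60 of 225 above 50 kb (26.7%, exact Clopper-Pearson interval 21.0 to 33.0%). A broader peak also offers more room for an overlap. Together the residual wide peaks occupied 0.626% of the autosomal length that control peaks covered.

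Along genes, residual wide peaks gathered shortly downstream of the start. The strand and start were listed for 400 of the 493 genes concerned on chromosomes other than 18, for which no start is listed. Counted from the nearest annotated start upstream, the centre of a residual wide peak lay at a median of 6918 bp (quartiles 3535 and 15548 bp, 550 pairs of a peak and a gene). In 217 of the 550 pairs (39.5%) it lay between 1 and 5 kb, in 120 (21.8%) between 5 and 10 kb, and in 2 (0.364%) within 1 kb. Beyond 50 kb were 43 (7.82%). Counted along the gene span, 406 of 550 (73.8%) had their centre in the first 25% and 49 (8.91%) in the last 50%. A start window lay under 4 of 688 residual wide peaks (0.581%), under 12 of 4216 narrower residual peaks (0.285%) and under 2312 of 23810 control peaks of 1000 bp or wider (9.71%). A control peak is typically many times longer, so its larger share on start windows is not a like-for-like comparison.

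The coverage profile compares both lists base by base over 6427 control-marked genes with 1 listed start near the end of the span. Control peaks covered 56.0% of bases in the first kb, 83.6% from 1 to 2 kb and 77.6% from 2 to 3 kb, then declined to 45.7% at 7.5 to 10 kb and 29.2% at 20 to 30 kb. Residual wide peaks covered 0.0685% in the first kb, 0.535% from 1 to 2 kb, 0.920% from 2 to 3 kb and 1.01% from 3 to 4 kb, then 0.389% at 7.5 to 10 kb and 0.131% at 20 to 30 kb. Over all 6427 genes their highest value thus lay further from the start than that of the control peaks. Narrower residual peaks were highest from 2 to 3 kb, at 1.59%. In the 243 of these genes that held a residual wide peak, such peaks covered 24.6% of the bases from 3 to 4 kb, which the choice of genes inflates. Control peaks in those 243 genes were highest in the same step, at 88.2%, against 80.3% from 1 to 2 kb. Within these genes the residual wide peaks were therefore not shifted from the control peaks at this resolution.

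**Figure D2:**
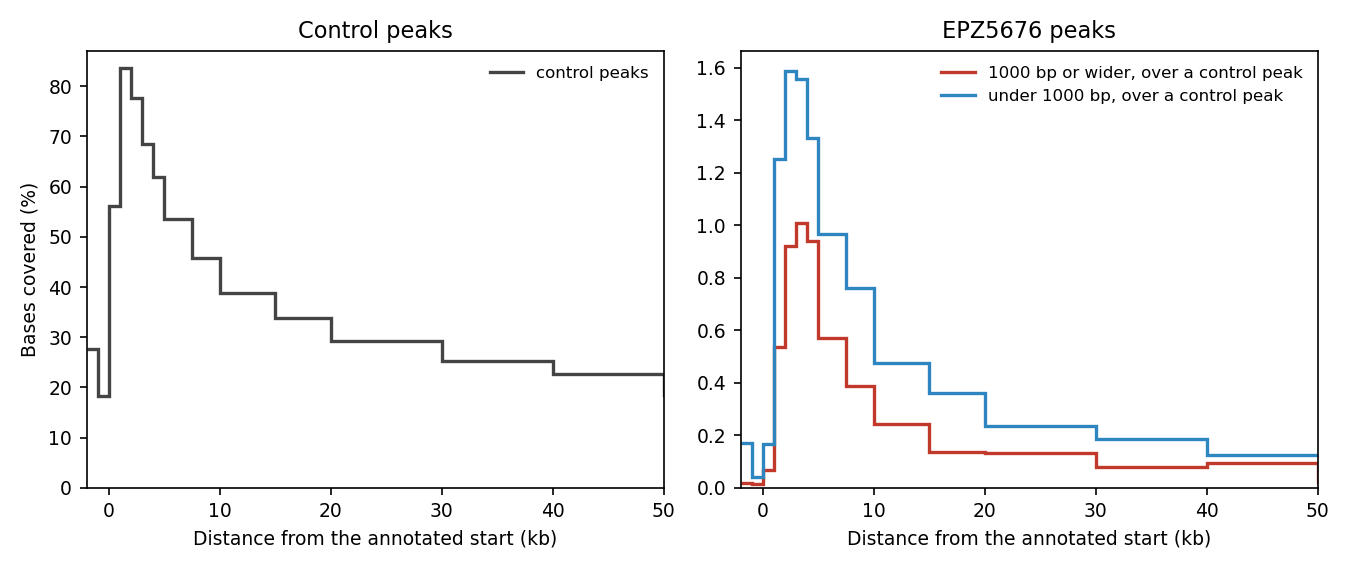
Percentage of bases covered (vertical) in steps of distance from the annotated start (horizontal, kb, negative values upstream) over 6427 control-marked genes, for control peaks on the left and for EPZ5676 peaks over a control peak on the right. The vertical scales differ: control peaks reach 83.6% at 1 to 2 kb, and residual wide peaks (red) reach 1.01% at 3 to 4 kb, below the narrower residual peaks (blue, 1.59% at 2 to 3 kb).

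Within broad control peaks the residual wide peaks sat near the edge that faces the start. Among 326 that lay wholly inside a control peak of over 10000 bp and whose gene has a listed strand, the median position was 17.7% of the way along the control peak (quartiles 10.4 and 30.5%), and 89.0% lay in its upstream 50%. For 2307 narrower residual peaks the median position was 27.4% and 77.3% lay upstream. Distance from the start also went with the kind of control peak. The median was 4438.5 bp over control peaks of fold 4 or more (278 pairs), 7644 bp from 2.5 to 4 (115 pairs) and 16964 bp under 2.5 (157 pairs). The narrower residual peaks showed the same order, at 5964, 9201 and 23988 bp.

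Protein-coding genes held 690 of the 713 residual wide peaks, or 96.8% (95.2 to 97.9%). They fell in 511 genes, 2.47% of the 20665 autosomal protein-coding genes and 4.56% of the 11203 with a control peak. Since 14 peaks lay in the spans of 2 genes at the same time and 85 of the 511 genes overlap another, part of the assignment is shared. The genes were long and heavily marked, with a median span of 79490 bp, against 25238 bp for control-marked genes, and a median control coverage of 29956 bp, against 5988 bp. Of control-marked genes of up to 10 kb, 2 of 2525 held a residual wide peak (0.0792%), while 182 of 1710 did from 50 to 100 kb (10.6%) and 79 of 545 above 200 kb (14.5%). With over 50 kb of control coverage, 150 of 723 genes did (20.7%).

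Part of the residual wide peaks shared a gene. Of the 511 genes, 395 held 1, 74 held 2, 20 held 3, 15 held 4, 4 held 5 and 3 held 7. The 116 genes with at least 2 held 303 of the 713 peaks (42.5%), and the 22 genes with at least 4 held 101 (14.2%). Of the narrower residual peaks, which are more numerous (4406 in 1990 genes), 75.2% shared a gene with another of their kind, and of the 64 wide peaks without a control peak 4.69% did. With the control list held to the lowest −log10 p of the EPZ5676 list, 73 genes held at least 2. Neighbours in the same gene were a median of 6523 bp apart (quartiles 2074 and 16959 bp, 193 gaps), and 82 of the gaps were 5000 bp or less. A control peak was shared by 159 of the residual wide peaks (22.3%), on 70 control peaks, with at most 5 on a single one. Peaks of a gene that share a control domain are therefore not independent.

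Nrp1, Pakap and Lhfp held 7 residual wide peaks each, on several separate control peaks of low fold. In Nrp1 (chr8:128358591-128505476) the widths along the gene were 1362, 2463, 1345, 6330, 1827, 2308 and 1198 bp. They summed to 16833 bp, against 28969 bp of control coverage in 22 peaks, and the highest control fold under them was 2.47. In Pakap (chr4:57434475-57896984), a gene of kinase anchoring proteins, they were 1336, 2471, 1393, 2295, 3718, 1199 and 1083 bp, with all centres between 136289 and 182560 bp from the 5′ end of the span. Lhfp (chr3:53041547-53261679), which encodes a tetraspan membrane protein, had 2462, 1109, 1249, 1613, 1482, 2145 and 1420 bp, with centres from 5482 to 141315 bp. In Nrp1 the centres lay 8593 to 55683 bp from the 5′ end, a stretch like that of Pakap and shorter than that of Lhfp.

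The genes named next lay either over control peaks of low fold or over a single broad one of higher fold. Tiam2, a Rac exchange factor gene, held 5 residual wide peaks (8574 bp) over control peaks of fold 2.21 to 2.43. Fgfr2 held 5 (8017 bp) over 2.24 to 2.60. Maml2 held 4 (13099 bp) over 2.13 to 2.51, and Setbp1, the gene of a SET-binding protein, held 4 (9450 bp) over 2.06 to 2.42. By contrast the 5 in Trio lay on a single control peak of 100330 bp and fold 3.89. The 5 in Med13l, a Mediator subunit gene, lay on one of 121745 bp and fold 6.05. Rxra had 4 on one of 62034 bp and fold 5.26. Of the 22 genes with at least 4, 16 had all of them on control peaks of a fold under 3 and 5 had all of them on a fold of 3 or more. This limit of 3 was also set after the values were seen. Of those 5 genes only Med13l and Rxra lay on a fold of 4 or more, while Trio, Lrrfip1 and Dlg5 fell in the class from 2.5 to 4. Peaks over faint control peaks lay in a gene with another residual wide peak in 62.8% of cases, those over a fold from 2.5 to 4 in 46.5% and those over a fold of 4 or more in 27.6%.

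**Figure D3:**
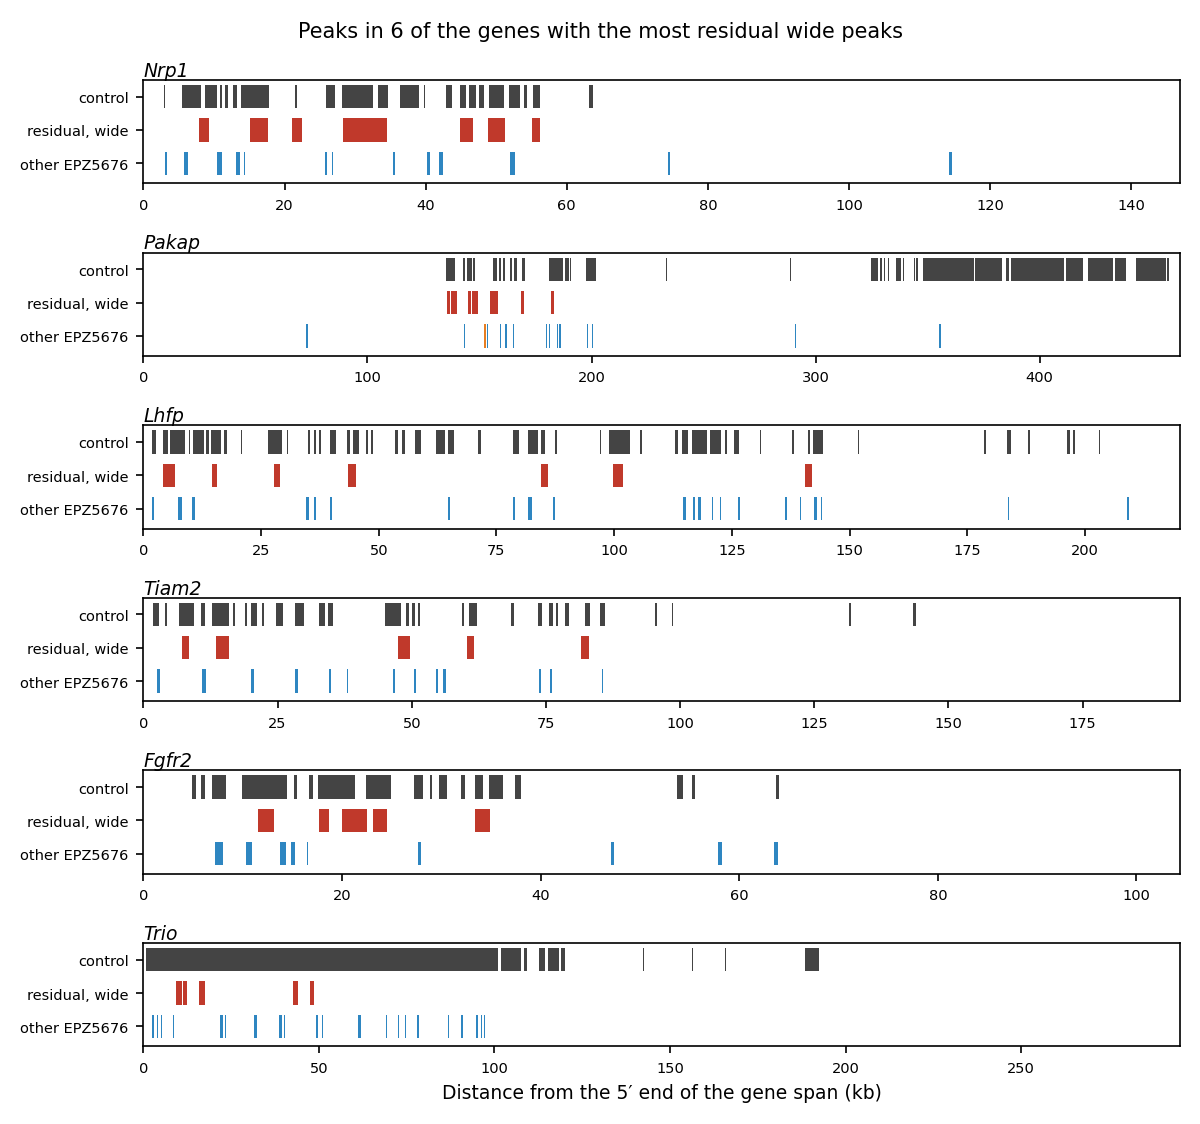
Map of 6 of the genes with the most residual wide peaks, with distance from the 5′ end of the gene span in kb (horizontal) and, in each panel, control peaks (grey), residual wide peaks (red) and other EPZ5676 peaks (blue, or orange for the one in Pakap that is 1000 bp or wider but touches no control peak). In Nrp1, Pakap, Lhfp, Tiam2 and Fgfr2 the residual wide peaks lie on several separate control peaks, whereas the 5 residual wide peaks of Trio lie in a single control peak of 100330 bp.

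Outside protein-coding genes lay 23 residual wide peaks, and 13 of them were in Pvt1. No gene of any kind held more. Pvt1 (chr15:62037986-62260215) had residual wide peaks of 1060 to 4518 bp (median 1365 bp) that summed to 20876 bp. Their folds ran from 2.74 to 3.07 and those of the control peaks under them from 2.23 to 2.63. In the control, 49 peaks covered 52.4% of Pvt1. Another 4, the widest of 3573 bp at chr2:128373892-128377464, lay in Morrbid, a long noncoding RNA gene (9182 bp in all, 37866 bp of control coverage). Of the remaining 6, 1 lay in Gm19610, 1 in Gm6634 and 4 in no listed gene. Pvt1 and Morrbid were singled out after their values were seen.

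In signalling and cytoskeletal gene lists, residual wide peaks lay on a larger share of the control-marked genes than the 4.56% over all such genes. The lists were chosen with earlier results known and hold long genes to differing degrees, so the median span of all autosomal genes of the list, marked or not, stands beside each count. For Notch pathway genes, which pass signals between neighbouring cells, it was 5 of 18 (median span 24258 bp), namely Maml2 (13099 bp), the DNA-binding partner Rbpj (1390 bp), the receptors Notch1 (1369 bp) and Notch2 (1037 bp) and the ligand Jag1 (1013 bp). TGF-β and BMP genes reached 8 of 29 (69006 bp), led by the corepressor Ski (5840 bp), the receptors Bmpr1a (2689 bp) and Acvr1 (2518 bp) and the signal transducer Smad5 (1646 bp). Tgfbr2 (1263 bp) and the latent TGF-β binding protein gene Ltbp1 (1237 bp) came next. Hippo genes, which restrain growth through YAP and TEAD, reached 7 of 26 (72640 bp). They were the transcription factor Tead1 (5531 bp), its cofactor genes Vgll3 (2954 bp) and Vgll4 (1272 bp), the angiomotin-like Amotl1 (3714 bp), the protocadherin Fat1 (1978 bp), the kinase Lats2 (1877 bp) and Limd1 (1480 bp). Over all genes with 5 to 10 kb of control coverage the share was 47 of 2172 (2.16%), and with 20 to 50 kb 205 of 1510 (13.6%). The median control coverage, again with unmarked genes included, was 5621 bp in the Notch list, 29649 bp in the TGF-β and BMP list and 23941 bp in the Hippo list. The Notch genes with a residual wide peak had more than that median. Jag1 had 8284 bp, Maml2 19629 bp, Notch1 21385 bp, Rbpj 53564 bp and Notch2 71903 bp.

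Genes of cell shape gave like counts. Of 41 control-marked actin and focal adhesion genes, 10 held a residual wide peak (median span 84615 bp). These included Parva (12665 bp), Cald1 (5232 bp), the gene of actin-binding caldesmon, Cnn3 (2338 bp), a calponin gene, Lpp (1975 bp), the kinase gene Rock1 (1713 bp) and Parvb (1587 bp). Wnt genes had 5 of 26 (44924.5 bp), namely Dvl1 (1378 bp), Tcf7l1 (1344 bp), Daam1 (1335 bp), Ctnnb1 (1314 bp), the β-catenin gene, and Prickle2 (1042 bp).

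Receptors of growth factors and guidance cues had 5 of 31 (86928 bp). Nrp1 led with 16833 bp, followed by Fgfr2 with 8017 bp, Egfr, the EGF receptor gene, with 7466 bp in 3 peaks, Ddr2, a collagen receptor kinase gene, with 4486 bp in 3, and Nrp2 with 1007 bp. Among mesenchymal transcription factor genes it was 7 of 33 (50033 bp), among them Nfix (9155 bp), Prrx1 (3583 bp), Prrx2 (1615 bp), Zeb1 (1399 bp), Tcf4 (1146 bp) and Runx2 (1038 bp). The fibroblast list had 3 of 18 (33850.5 bp), Cald1, Prrx1 and the collagen gene Col5a1 (2585 bp), of which the first 2 also count in other lists. EPZ5676 peaks of any width lay on 7 of all 28 genes of that list, against 2697 of all 20665 autosomal protein-coding genes. Besides those 3 genes, Twist2 (6 peaks), Fbn1 (4), Col5a2 (3) and Sparc (1) held EPZ5676 peaks but no residual wide peak. Col1a1, Fn1, Pdgfra and Pdgfrb were control-marked but free of EPZ5676 peaks. Col1a2, Col3a1, Vim, Dcn, Lum and Postn were not control-marked. How many of the residual wide peaks in these lists come from the fibroblast feeder cells was not tested.

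**Figure D4:**
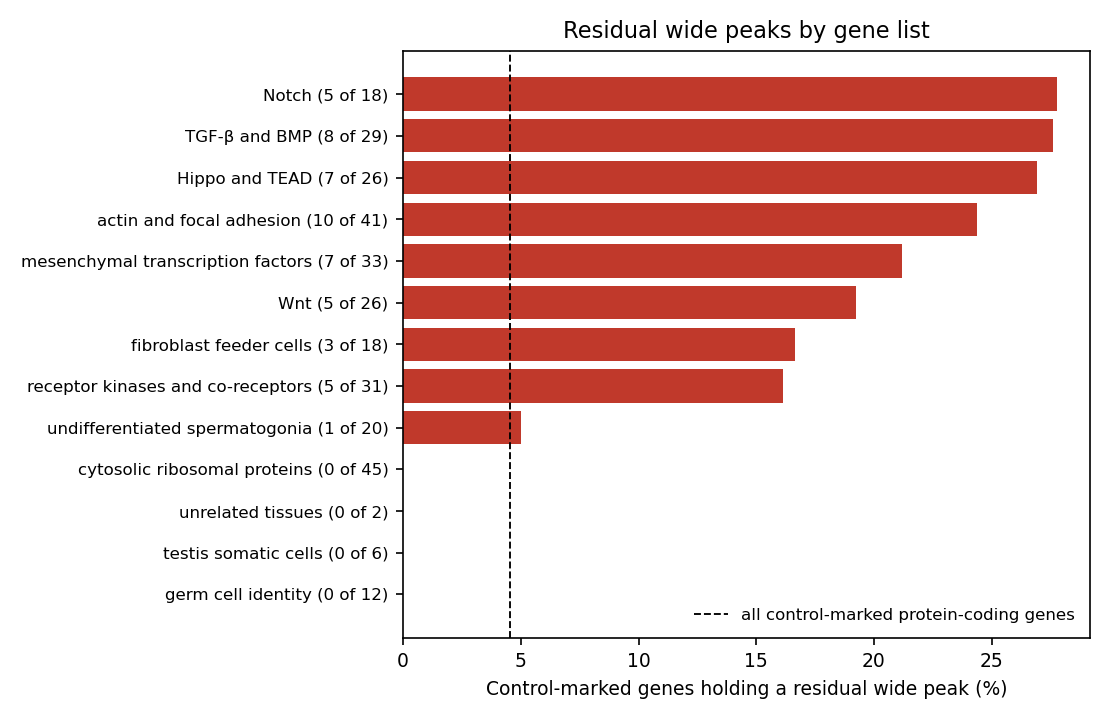
Percentage of the control-marked genes of each list that hold a residual wide peak (horizontal), with the counts in brackets; the dashed line is the value over all control-marked protein-coding genes, 4.56%. The bars of 8 lists pass well beyond the line, among them Notch and fibroblast feeder cells with only 18 control-marked genes each. That of undifferentiated spermatogonia (1 of 20, 5%) ends just past the line, and 4 lists have no such gene.

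The remaining lists had counts of 1 or 0, and nothing is read from those of 20 genes or fewer beside the 4.56% of all control-marked genes. The Notch and fibroblast lists, at 18 control-marked genes each, are as small, so their larger shares call for the same caution. Of 20 control-marked genes of undifferentiated spermatogonia, 1 held one, the forkhead gene Foxo1 (1381 bp, 78994 bp of control coverage), at a median span of 17368.5 bp. None of 12 germ cell identity genes did (median span 41369.5 bp), nor any of 6 genes of testis somatic cells (16099 bp), 2 of unrelated tissues (10490 bp) and 45 of cytosolic ribosomal proteins (3551 bp). Dot1l, the gene of the inhibited enzyme, had 1 EPZ5676 peak of 855 bp, which is under the width limit.

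Set beside the 2 nearest classes of EPZ5676 peaks, the residual wide peaks resembled the narrower residual peaks in place and differed from the wide peaks without a control peak. Both residual classes overlap control peaks by rule, and control peaks gather in the first part of genes. The contrast in place is therefore not independent of the rule and is given as a description. Among the 4406 narrower residual peaks 97.8% fell in a protein-coding gene, with a median fold of 2.76 and a median fold of 4.10 in the control peak beneath. Their centres were a median of 8120.5 bp from the nearest start upstream, against 6918 bp for the wide ones. Among the 64 wide peaks without a control peak 50% did (37.2 to 62.8%), with a median fold of 2.79 and a median distance of 36774 bp over 26 pairs. By chromosome there were 16 (chromosome 19) to 70 (chromosome 2) residual wide peaks, or 2.65 (chromosome 11) to 7.03 (chromosome 3) for each Mb of control coverage, with 4.28 over all autosomes. No peak of the EPZ5676 list lies on X or Y.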

How the data were processed

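Peaks of H3K79me2 ChIP-seq, 1 list per condition recorded under replicate 1 of each H3K79me2 group, were analysed. The build is mm10 and the tools named are deepTools, Trimmomatic and bcl2fastq 2.20.0.422, per the submitters' processing notes. Aligner, peak caller and pooling of replicates: not given in the sources used here. The lists have 9 columns, without header. The score the authors deposited equals 10 times the −log10 q, cut to a whole number, in all but 4 control peaks, and was not used further. Fold enrichment, a ratio of signal to background, and the −log10 p-value and −log10 q-value are as the authors deposited them. They served for description, and for ranking and filtering inside 1 list at a time. The control floor is the exception, since it held control peaks to the lowest −log10 p of the EPZ5676 list. No per-sample column was left unmapped (0 columns).

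Peaks were intersected with each other and with RefSeq gene spans (GRCm38.p6) in Python 3.11.15 with pandas 2.3.3, and the script was tested on simulated data. Gene starts and strands came from RefSeq start windows. No genome was used, so peak sequences are not shown. Shares carry exact Clopper-Pearson 95% intervals, which cover the sampling of peaks only. The members and the 15 gene lists (444 different genes) were chosen with earlier results of these data known. Genes were named by rank of number, width, fold and overlap of their peaks and by membership of a list, at most 6 a list by summed width, with the exceptions stated in the text. Results on 2 of the lists and on some genes are not reported here. Alternatives changed the width, overlap, peak threshold, control floor, joining of peaks and gene assignment.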

Additional observations from a re-analysis of the deposited data

How the results depend on the processing

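Of 93 recomputed values, 55 kept close to the value reported (counts within 1.5 times it, shares and medians within its 95% interval). No paired analysis was possible because each condition has 1 peak list, and no replicate could be left out. A minimum width of 800 bp gave 1086 peaks, 86.3% of such peaks over control, 212 genes with at least 2, 51.6% of peaks in those genes and a median fold of 2.83. With 1500 bp these were 272, 97.8%, 35, 29.0% and 2.87, with 220 genes and 94.9% in protein-coding genes. With 2000 bp they were 129, 100%, 14, 24.8% and 2.90, with 109 genes. A −log10 q of at least 2 left 82 peaks in 70 genes, 9 of them with at least 2, with 95.1% in protein-coding genes, 22.0% in shared genes and a median fold of 3.08. Requiring control peaks over 50% of the length gave 85.5% over control and 38.6% in shared genes, and over all of it 73.4% and 33.3% with a median control fold of 4.60. Holding the control to the lowest −log10 p of the EPZ5676 list gave 67.7%, 73 genes with at least 2, 31.4% in them and a median control fold of 4.86. Joining peaks up to 1000 bp apart gave 89.0% over control and a median fold of 2.86. It also raised the counts to 1045 peaks in 731 genes, 172 of them with at least 2, which is still within 1.5 times the reported counts. With noncoding genes included, 99.4% of peaks lay in a gene. With only genes that overlap no other, 83.3% did and 37.3% lay in shared genes. The cause of each shift was not tested beyond the construction of the alternative. Read depth, unknown here, limits which faint peaks either list could hold.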

Other observations

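In 6 of the 511 genes the residual wide peaks together were longer than all control peaks of the gene, so part of them lay beside the control peak they touched. These genes were singled out after their values were seen. They are Tll1, a tolloid-like protease gene (2655 bp after EPZ5676, 870 bp in the control), Col8a1, a collagen gene (1056 and 424 bp), Lurap1l (4819 and 2387 bp), Grem1, a secreted BMP antagonist gene (1041 and 741 bp), Anxa3, an annexin gene (1245 and 1191 bp), and Ccdc80, a gene of an extracellular matrix protein (5613 and 5529 bp). Several encode secreted or matrix proteins, which is background knowledge of these genes and was not tested for enrichment. In 18 genes the residual wide peaks came to more than 50% of the control length. Over all 511 genes the median was 5.84%.

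The residual wide peaks least covered by control peaks were 1439 bp in Cpe, a carboxypeptidase gene, with 5.28% covered, 1131 bp in Samd5 with 6.45%, 1138 bp in Maml2 with 9.67%, 1201 bp in Tll1 with 13.4% and 1253 bp in Mecom, a zinc finger transcription factor gene, with 15.2%. Their control peaks were 189 to 442 bp wide and of a fold between 2.05 and 2.52.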
